A study of Mus musculus with 12 samples.

Results

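Transcripts of 7 apolipoprotein genes (Apoa4, Apoa1, Apob, Apoc1, Apod, Apoe and Apom) were followed through 12 kidney libraries of mice with Alport syndrome that ate fisetin or a control diet. The genes were taken from the 55487 genes of the deposited table by their symbols. They were chosen by their measured fisetin against control differences in this table, so every such difference below describes these libraries and is not tested. In 6 of the 7 genes the counts were high enough to be fitted, and Apoa1 was the exception.

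Apolipoproteins coat the particles that carry lipid through blood and lymph, hold the particles together, activate or block the enzymes that unload them, and dock them to receptors. Most of the plasma supply comes from liver and gut. The kidney adds to some of them, takes up filtered ones in the proximal tubule through megalin and cubilin, and is the main site in mouse, together with liver, where apolipoprotein M is transcribed. Apolipoprotein E is also made by macrophages in many tissues.

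The libraries were of bulk messenger RNA from whole kidney. The 6 fisetin libraries came from males on the B6 background with X-linked Alport syndrome at 30 weeks of age, fed a diet with 500 ppm of fisetin, a plant flavonoid; the 6 control libraries came from such males on the control diet, so both groups carry the disease and no healthy kidney was compared. Titles name Col4a5, the X-linked gene for a basement membrane collagen chain, while the genotype field reads HET for these males, so the allele is not clear from the labels. Libraries 1 to 3 of each diet belonged to batch 1 and libraries 4 to 6 to batch 2; what a batch stands for and whether each library is a separate animal are not stated, and p-values measure the spread between libraries.

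Total estimated counts ran from 16310214 to 24451821 in fisetin libraries and from 18638748 to 22396857 in control libraries. Levels are given as CPM, counts scaled to a common library size after TMM, a method that sets the bulk of genes equal between libraries. All 12 proximal tubule markers and all 5 podocyte markers were detected in every library, so the kidney label held. A pair of fisetin libraries stood apart and touch several results. Fisetin 5 carried transcripts typical of liver: albumin (Alb) reached 737.2 CPM there, against 1.575 to 5.479 CPM in the other 11 libraries. Fisetin 6 had a summed level of 14970 CPM over the 12 proximal tubule markers, against 6633 to 11010 CPM in the other fisetin libraries and 9138 to 15340 CPM in control libraries. Its 12 macrophage markers summed to 403.3 CPM, the lowest of all libraries.

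The genes lie at 5 places in the genome (GRCm38, GENCODE M21), all as protein-coding genes. Apoa1 (chr9:46228580-46230466, plus strand) and Apoa4 (chr9:46240696-46243459, plus strand) share a cluster with Apoc3 between them on the minus strand and Apoa5 beyond. Apoe (chr7:19696109-19699188) and Apoc1 (chr7:19689481-19692660) are neighbours on the minus strand, 3448 bases apart, followed by Apoc4 and Apoc2. Apob (chr12:7977648-8016835, plus strand), Apod (chr16:31296192-31314808, minus strand) and Apom (chr17:35128997-35132050, minus strand) stand alone.

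RefSeq start regions were matched for 6 of the 7 genes (not Apoc1), and 4 are shown. These are Apoa4, Apob and Apom, whose diet estimates were the lowest of the fitted genes, and Apoa1, the cluster neighbour of Apoa4. Apod, with an estimate nearer 0 (log2 −0.13), is not shown. Apoa1 had too few counts to be fitted, so whether it shared the diet pattern of Apoa4 could not be told. Each sequence runs 5′ to 3′ on the strand of the gene, from 250 bases before the annotated start to 50 bases after it (RefSeq, GRCm38.p6). Capitals mark matches on either strand to CAAAGNNC, letters common in binding sites of the liver and kidney factor HNF4A, or to TATAAA.
Apoa4: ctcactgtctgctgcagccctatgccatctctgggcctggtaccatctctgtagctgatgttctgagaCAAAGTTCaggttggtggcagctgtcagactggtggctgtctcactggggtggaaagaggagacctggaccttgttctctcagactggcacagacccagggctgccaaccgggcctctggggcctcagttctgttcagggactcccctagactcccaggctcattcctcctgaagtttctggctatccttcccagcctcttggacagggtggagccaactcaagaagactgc
Apob: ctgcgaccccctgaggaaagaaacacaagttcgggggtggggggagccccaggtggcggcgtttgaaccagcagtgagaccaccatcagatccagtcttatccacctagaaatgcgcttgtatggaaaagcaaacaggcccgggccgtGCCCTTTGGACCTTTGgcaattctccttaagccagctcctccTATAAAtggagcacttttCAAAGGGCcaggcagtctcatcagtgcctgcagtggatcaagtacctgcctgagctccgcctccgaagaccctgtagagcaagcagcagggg
Apom: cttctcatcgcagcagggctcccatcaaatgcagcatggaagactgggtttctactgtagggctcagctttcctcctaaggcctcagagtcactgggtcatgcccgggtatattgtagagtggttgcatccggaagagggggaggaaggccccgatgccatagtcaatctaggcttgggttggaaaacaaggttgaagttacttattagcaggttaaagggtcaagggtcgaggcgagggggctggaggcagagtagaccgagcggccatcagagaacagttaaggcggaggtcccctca
Apoa1: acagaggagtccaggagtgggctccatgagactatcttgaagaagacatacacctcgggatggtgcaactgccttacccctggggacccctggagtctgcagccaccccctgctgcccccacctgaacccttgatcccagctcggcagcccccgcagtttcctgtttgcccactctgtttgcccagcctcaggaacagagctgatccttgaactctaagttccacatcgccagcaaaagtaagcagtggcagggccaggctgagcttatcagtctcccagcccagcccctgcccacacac
These windows are chr9:46240594-46240893 for Apoa4, chr12:7977427-7977726 for Apob, chr17:35131752-35132051 for Apom and chr9:46228380-46228679 for Apoa1. In each window the GENCODE gene start given above lay upstream of the RefSeq start. The Apom window lay almost wholly inside the GENCODE gene. The Apoa4 window held 1 match to CAAAGNNC, at position −182 counted from the RefSeq start. In the Apob window CAAAGNNC matched at 3 places, 2 of them side by side on the minus strand, and TATAAA matched once, at position −60. The Apom and Apoa1 windows held neither motif. Of 32851 mouse promoters of this length, 17.7% held CAAAGNNC and 13.6% held TATAAA. A match is a description of letters and was not tested as a binding site.

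Ranked per transcript length, in the deposited TPM (reads scaled for transcript length and to a fixed total), Apoe was by far the most abundant. Its median was 619.8 TPM over the 12 libraries, and it made up 84.7 to 96.9% of the summed TPM of the 7 genes. Apob followed with a median of 29.51 TPM and Apom with 6.815 TPM. Apoe was above Apob, and Apob above Apom, in all 12 libraries. The order was less clear below these: Apoc1 (median 5.015 TPM) was below Apom in 9 of 12 libraries and above Apoa4 (1.41 TPM) in 10 of 12. Apoa4 was above Apod (1.195 TPM) in only 7 of 12, so those neighbours did not differ beyond their spread. Apoa1 came last at a median of 0.13 TPM.

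Apoa4, a protein of chylomicrons and high-density lipoprotein that in mouse is made mainly in gut and liver, was the gene with the clearest separation of the diets. It had 2.033 CPM in the lowest, 2.995 in the median and 3.379 in the highest fisetin library, against 3.641, 5.568 and 6.248 CPM in control libraries. All 6 fisetin libraries were below the lowest control library. Means were 2.81 ± 0.544 CPM with fisetin and 5.259 ± 1.03 CPM on the control diet (SD, n = 6 each). The fitted log2 fold change was −0.89 ± 0.16 (SE here and below, from edgeR with batch as a covariate). Within batch 1 it was −0.78 ± 0.24 and within batch 2 −1.0 ± 0.22. Such a full separation downward occurred in 76 of 17890 genes (0.425%), and nothing is read from this share because the diet comparison chose the gene.

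The separation did not hold in TPM, where fisetin libraries ran from 1.00 to 1.44 and control libraries from 1.14 to 2.67. The low control value belonged to control 1, in which the 7SL RNA genes Rn7s1 and Rn7s2 took 53.1% of all TPM, the highest share of any library. In the other libraries they took 40.34 to 49.21%. With those 2 genes left out of the total, fisetin libraries ran from 1.68 to 2.49 and control libraries from 2.43 to 4.60, and 3 of 6 fisetin libraries were below the lowest control library. The Apoa4 difference in the fitted counts was of like size without either library that stood apart, at −0.80 ± 0.14 without fisetin 5 and −0.94 ± 0.17 without fisetin 6. Of 6 enterocyte markers, Sis, Alpi and Cdx1 were at 0 in every library, while Vil1, which kidney brush borders also express, had 116.8 to 191.3 CPM, Lct 0.1564 to 0.7312 CPM and Fabp2 at most 0.1162 CPM. The part of gut RNA in the Apoa4 values was not tested.

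Apob encodes the large structural protein of very-low-density and low-density lipoprotein. It had 455.2, 509.7 and 661.3 CPM in the lowest, median and highest fisetin library, against 478.4, 680.0 and 909.8 CPM in control libraries. The groups overlapped, but each of the 6 fisetin libraries lay below the control mean. The log2 fold change was −0.39 ± 0.14 over both batches, −0.36 ± 0.19 within batch 1 and −0.42 ± 0.19 within batch 2.

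Apom, a small lipocalin that carries sphingosine-1-phosphate on high-density lipoprotein, was split within the fisetin group. Fisetin libraries 1 to 5 had 2.25, 4.44, 5.057, 4.611 and 2.556 CPM and fisetin 6 had 26.54 CPM, against 7.581, 13.67 and 20.43 CPM in the lowest, median and highest control library. Thus 5 of 6 fisetin libraries lay below every control library, and fisetin 6 lay above every one. The log2 fold change was −0.98 ± 0.54 over 12 libraries and −1.80 ± 0.31 without fisetin 6. By batch it was −1.63 ± 0.32 in batch 1 and −0.40 ± 0.84 in batch 2, which holds fisetin 6.

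Apoe, the ligand that brings remnant particles to their uptake receptors, leaned the other way. It had 455.5, 938.2 and 1196 CPM in the lowest, median and highest fisetin library, against 493, 637.1 and 963.6 CPM in control libraries. The groups overlapped: 3 fisetin libraries were above the highest control library and fisetin 6 was below the lowest. The log2 fold change was 0.45 ± 0.22, 0.29 ± 0.20 without fisetin 5 and 0.58 ± 0.18 without fisetin 6. It was 0.36 ± 0.24 within batch 1 and 0.55 ± 0.34 within batch 2.

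**Figure D1:**
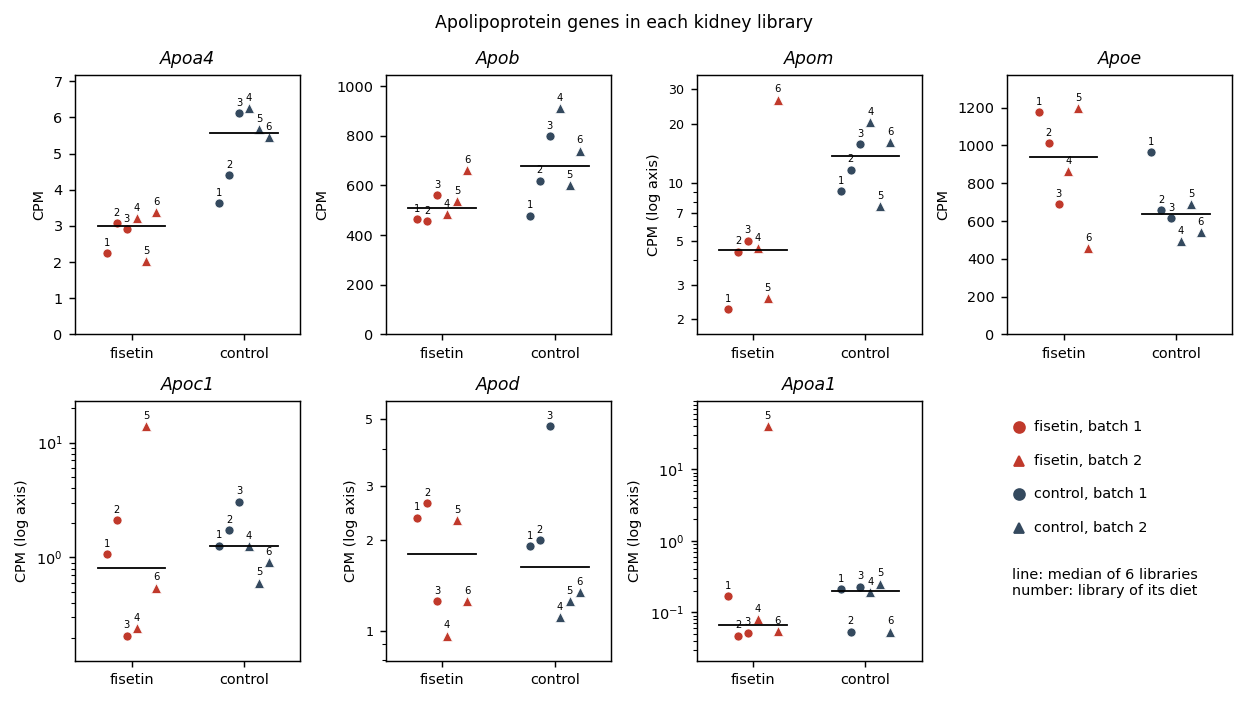
CPM of the 7 genes in each library, fisetin left and control right, with the library number above each point and a line at the median of 6 libraries; circles are batch 1 and triangles batch 2, and Apom, Apoc1, Apod and Apoa1 have log axes. The diets separate for Apoa4 alone, with 3.379 CPM as the highest fisetin and 3.641 CPM as the lowest control value, while fisetin 6 stands apart for Apom and fisetin 5 for Apoc1 and Apoa1.

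Across the whole table, the edgeR quasi-likelihood test with Benjamini-Hochberg adjustment called none of the 6 fitted genes for diet, and 0 of 17890 genes in all (0%). The adjusted p nearest the threshold was 0.1449, while 2608 genes were under 0.05 before adjustment. DESeq2 called 154 genes, 64 of them lower with fisetin (0.397% of the 16140 genes it adjusted), and Apoa4 was the only one of the 6 among them. With fisetin 5 left out, DESeq2 called 63 genes, Apoa4 included. With fisetin 6 left out, edgeR called 70 genes, 26 of them lower with fisetin (0.144%), and Apoa4 and Apom were among these. Under limma-voom with quality weights, which gives less weight to divergent libraries, 1234 genes (6.9%) were called lower, with Apoa4, Apob and Apom among them, and 1156 (6.46%) higher, with Apoe among them. All these calls come from the comparison that chose the genes.

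**Figure D2:**
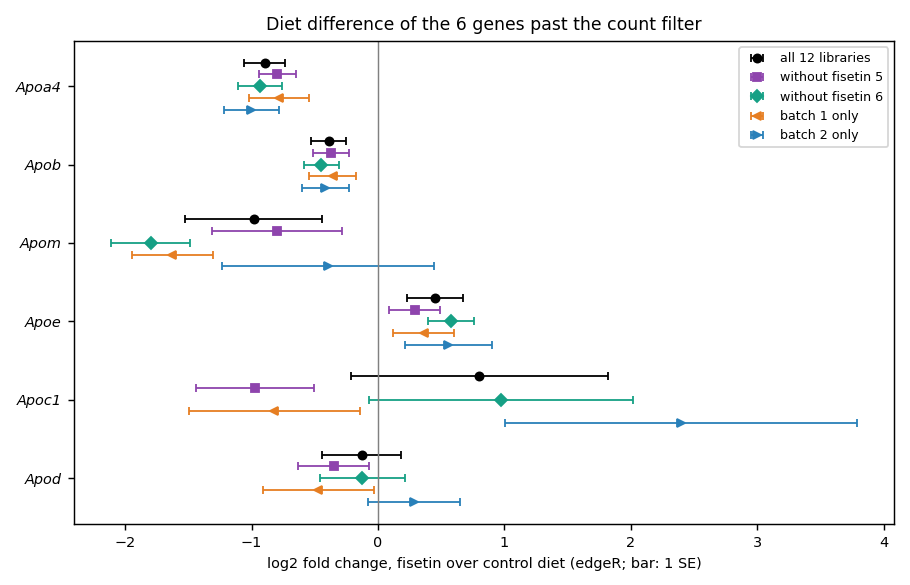
Log2 fold change, fisetin over control, of the 6 fitted genes (x axis) from edgeR with 1 SE on each side, over all 12 libraries, without fisetin 5, without fisetin 6 and within each batch. Apoa4 and Apob stay close to −0.89 and −0.39 in every set, Apom reaches −1.80 without fisetin 6, and Apoc1 lies at 0.80 with all libraries but −0.97 without fisetin 5.

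Apoc1, a small exchangeable protein that restrains lipoprotein lipase, varied most among the fitted genes. Fisetin 5 had 13.94 CPM, the other fisetin libraries had 0.2085 to 2.125 CPM, and control libraries had 0.6025 to 3.062 CPM. Fisetin 5 was thus above every control library, while 3 fisetin libraries were below every control library. The log2 fold change was 0.80 ± 1.02 over 12 libraries and −0.97 ± 0.47 without fisetin 5. It was −0.82 ± 0.68 in batch 1 and 2.40 ± 1.39 in batch 2, which holds fisetin 5.

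Apod, a lipocalin unlike the other apolipoproteins in sequence and known from nerve sheath and connective tissue, had overlapping values on the 2 diets. It had 0.9623, 1.789 and 2.645 CPM in the lowest, median and highest fisetin library, against 1.105, 1.619 and 4.753 CPM in control libraries. The highest value was that of control 3. The log2 fold change was −0.13 ± 0.31, and 0.19 without control 3.

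The levels of 7 adipocyte markers are given beside Apoc1 and Apod. They summed to 137, 153.8, 10.06, 7.418, 253 and 32.81 CPM in fisetin 1 to 6, against 30.55, 86.77, 274.2, 52.29, 13.46 and 30.05 CPM in control 1 to 6. Fisetin 5, fisetin 2 and fisetin 1 had the highest sums of their group and also the highest Apoc1. Control 3 had the highest sum of all and the highest Apod. The 3 genes whose residuals followed Apoc1 most closely over 12 libraries were Kcnk3, Ucp1 and Rbp4 (Pearson r of 0.98, 0.979 and 0.968). Without fisetin 5, Kcnk3 (0.965) was again the first and the adipocyte hormone Adipoq (0.957) was among the 3. Ucp1 is the heat-making protein of brown fat. The part of adipocyte RNA in the Apoc1 and Apod values was not tested.

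Apoa1, the main protein of high-density lipoprotein, was close to undetected in every kidney library but 1. It had 3, 1, 1, 2, 693 and 1 estimated counts in fisetin 1 to 6, against 4, 1, 5, 4, 5 and 1 in control 1 to 6. Only fisetin 5 stood out, at 40.25 CPM (95% Poisson interval of its count 642 to 747, counting error only), against at most 0.251 CPM elsewhere. Outside that library the counts were 1 to 3 with fisetin and 1 to 5 on the control diet, and the gene failed the count filter.

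The same library carried other liver-type transcripts. Of the 10 hepatocyte markers, 6 were highest in fisetin 5. So were 9 of 12 macrophage markers, and the share over all genes was not counted, so nothing is read from this count alone. The list summed to 1375 CPM there, against 321.5 to 479.1 CPM in the other fisetin libraries and 408.9 to 566.9 CPM in control libraries. Alb alone made up 737.2 CPM of the fisetin 5 sum. Ttr (165.8 CPM), Fga (132.6), Fgg (115.1) and Serpina1a (63.72) lay within the range of the other libraries. Their highest values elsewhere were 233.9, 148.7, 139.6 and 66.25 CPM. Ahsg, encoding fetuin-A, had 37.12 CPM in fisetin 5 and at most 0.05625 CPM elsewhere. Hpx, encoding hemopexin, had 21.61 CPM against at most 0.5027 CPM, and Cyp3a11, a liver cytochrome, 9.294 CPM against at most 0.3012 CPM. Ahsg and Cyp3a11 were at 0 in at least 1 other library. The part of such transcripts in the fisetin 5 values of Apoa1 and Apoc1 was not tested.

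Most of the other secreted apolipoproteins were also highest in fisetin 5, by margins that varied. Of 9, 8 had their highest value there. Among the marker lists, 9 of 12 macrophage markers and 0 of 12 proximal tubule markers were highest there. The share of all genes highest in fisetin 5 was not counted. Apoa2, the second protein of high-density lipoprotein, had 30.26 CPM there and at most 2.089 CPM in the other 11 libraries. Apoa5, a regulator of triglyceride clearance, had 3.718 CPM against at most 0.05021 CPM. Apoc3, which slows triglyceride clearance and lies between Apoa1 and Apoa4, had 7.668 CPM against 2.242 to 5.191 CPM. Apoh, encoding beta-2-glycoprotein I, had 16.03 CPM against 2.138 to 11.2 CPM. The exception was Clu, clusterin, at 504.9 CPM against 350.9 to 677 CPM. Unlike its cluster neighbours, Apoa4 was not raised in fisetin 5. It had 2.033 CPM there (35 estimated counts), the lowest of all libraries, next to 2.25 CPM (40 estimated counts) in fisetin 1.

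**Figure D3:**
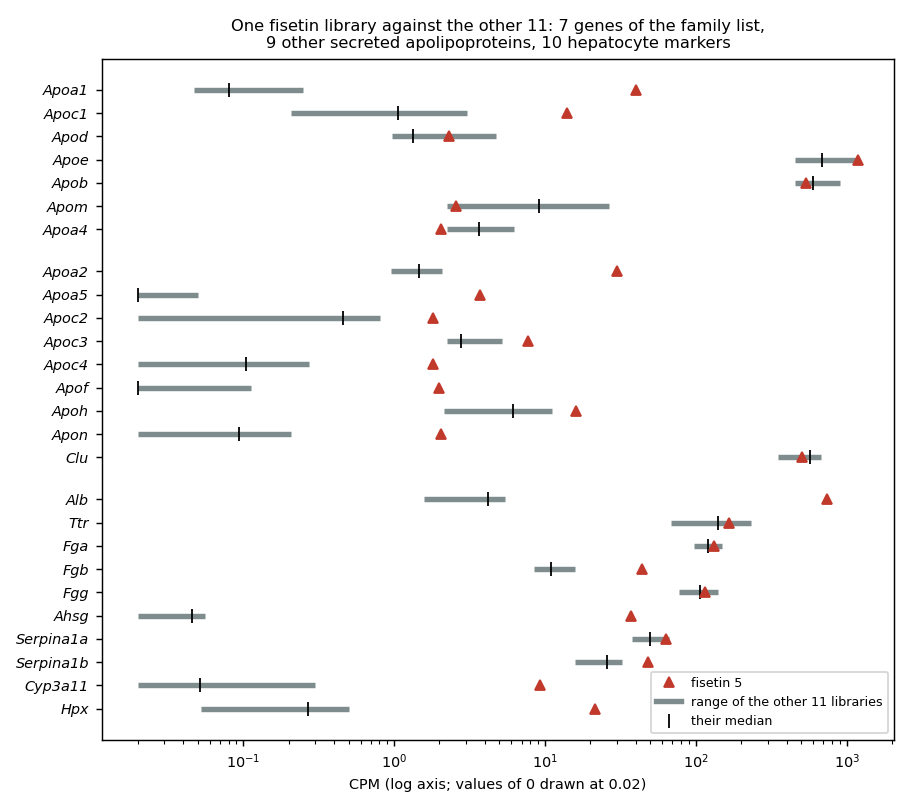
CPM on a log axis of fisetin 5 (triangles) and of the other 11 libraries (grey bars from lowest to highest, tick at their median) for the 7 genes, 9 other secreted apolipoproteins and 10 hepatocyte markers; zeros are drawn at the left end. Apoa1, Apoc1, Apoe, 8 of the 9 others and 6 of 10 hepatocyte markers have their highest value in fisetin 5, and Alb reaches 737.2 CPM. The share of all genes highest there was not counted.

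Measures other than the diet difference that chose the genes were tested next. The genes and the marker lists used below were chosen with earlier results of these data known. No gene, among them the 6 fitted here, passed edgeR's test that the diet difference varied between batches: 0 of 17890 were called (0%), 376 had an unadjusted p under 0.05, DESeq2 called 1 gene and limma-voom with quality weights 0. The term was largest for Apoc1, at 3.20 ± 1.75 (log2, batch 2 minus batch 1; adjusted p = 0.9999, edgeR), and fell outside 1 SE of 0 also for Apom (1.23 ± 1.04) and Apod (0.75 ± 0.62). Without fisetin 5 the Apoc1 term was −0.44 ± 1.02, and without fisetin 6 the Apom term was −0.39 ± 0.63. The batch term called 0 of 17890 genes too (0%), with 604 at an unadjusted p under 0.05 and 0 by DESeq2 or limma-voom with quality weights. Among the genes followed here it was largest for Apom and Apod, at nearly equal size and opposite sign. It was 0.86 ± 0.54 for Apom and −0.86 ± 0.31 for Apod on the log2 scale for batch 2 over batch 1 (adjusted p = 0.8916 for each, edgeR).

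The genes were then compared with each other within diet and batch, by correlating log2 CPM after the mean of each of the 4 diet-and-batch groups had been subtracted. Apoe and Apom ran opposite to each other. Pearson r was −0.931 and Spearman rho −0.902 over 12 libraries (exact permutation within groups, two-sided, p = 0.00077 for each, the smallest that the 1296 arrangements can give; adjusted p = 0.0162 over 21 pairs). With fisetin 5 and fisetin 6 left out, r was −0.83. This was the only one of 21 pairs to pass. With fisetin 4, fisetin 5 or fisetin 6 left out singly, its r was −0.933, −0.894 or −0.856 and it no longer passed (exact permutation, adjusted p = 0.0648, 0.0648 and 0.158). The exact test has fewer arrangements with a library left out, so a lost pass need not mean a weaker correlation.

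Other pairs came near the threshold, namely Apob with Apoe (r −0.75, rho −0.797), Apob with Apom (0.669 and 0.72) and Apoc1 with Apod (0.799 and 0.888), each with an adjusted p of 0.0567 for r and 0.0608 for rho by exact permutation. Without the 2 libraries farthest from the median of the gene named first, r was −0.743, 0.74 and 0.748. Apoc1 and its chromosomal neighbour Apoe did not pass (r 0.491, rho 0.252; exact permutation adjusted p = 0.638 and 0.741), and neither did Apoa1 and Apoa4 (r −0.648, rho −0.503; exact permutation adjusted p = 0.329 and 0.386).

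Levels of cell type markers were set beside the genes in the same way, each list as the mean log2 CPM of its markers, for 21 pairs of a gene and a list. Apoe followed the 12 macrophage markers (r 0.988, rho 0.986) and ran against the 12 proximal tubule markers (r −0.981, rho −0.965), each with an exact permutation p = 0.00077 and an adjusted p = 0.00405 for r. Without fisetin 5 and fisetin 6, r was 0.972 and −0.963. Apom did the reverse, with r −0.94 and rho −0.916 for macrophage markers and r 0.929 and rho 0.909 for proximal tubule markers (exact permutation adjusted p = 0.00405 for both r; −0.852 and 0.846 without the same libraries).

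Apob resembled Apom. Its r was −0.805 with macrophage markers and 0.713 with proximal tubule markers (rho −0.811 and 0.797; exact permutation adjusted p = 0.0189 and 0.036 for r). Without control 1 and control 3 these were −0.785 and 0.697. On the log2(TPM + 1) scale they were −0.258 and 0.683 and no longer passed (exact permutation adjusted p = 0.435 and 0.205). Apoa4 followed the proximal tubule markers less closely, with r 0.782 and rho 0.678 (exact permutation adjusted p = 0.047 for r and 0.121 for rho), and r was 0.603 without fisetin 5 and control 1.

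The fibroblast markers gave the remaining calls. Apoe followed them (r 0.927, rho 0.867; exact permutation adjusted p = 0.0189 for r), while Apob (r −0.719, rho −0.685) and Apom (r −0.769, rho −0.713) ran against them (exact permutation adjusted p = 0.036 for both r). The rank correlations of Apob and Apom with this list did not pass (exact permutation adjusted p = 0.0567 and 0.0936 for rho), and on the log2(TPM + 1) scale r was −0.0018 for Apob and −0.702 for Apom. Without the 2 farthest libraries, r was 0.91 for Apoe, −0.767 for Apob and −0.615 for Apom. Apoa1, Apoc1 and Apod passed with none of the 3 lists. In all, 10 of 21 pairs passed by r, and on the log2(TPM + 1) scale 4 did: Apoe and Apom, each with the macrophage and the proximal tubule list. The share of all genes that would pass with these lists was not counted, so the passes are not read as particular to these genes. Leaving out 1 library at a time, Apoe with both lists and Apom with the macrophage list passed every time. Apom with the proximal tubule list was lost without control 5 (r 0.919, exact permutation adjusted p = 0.0567), and each of the other 6 pairs was lost in at least 1 such repeat.

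**Figure D4:**
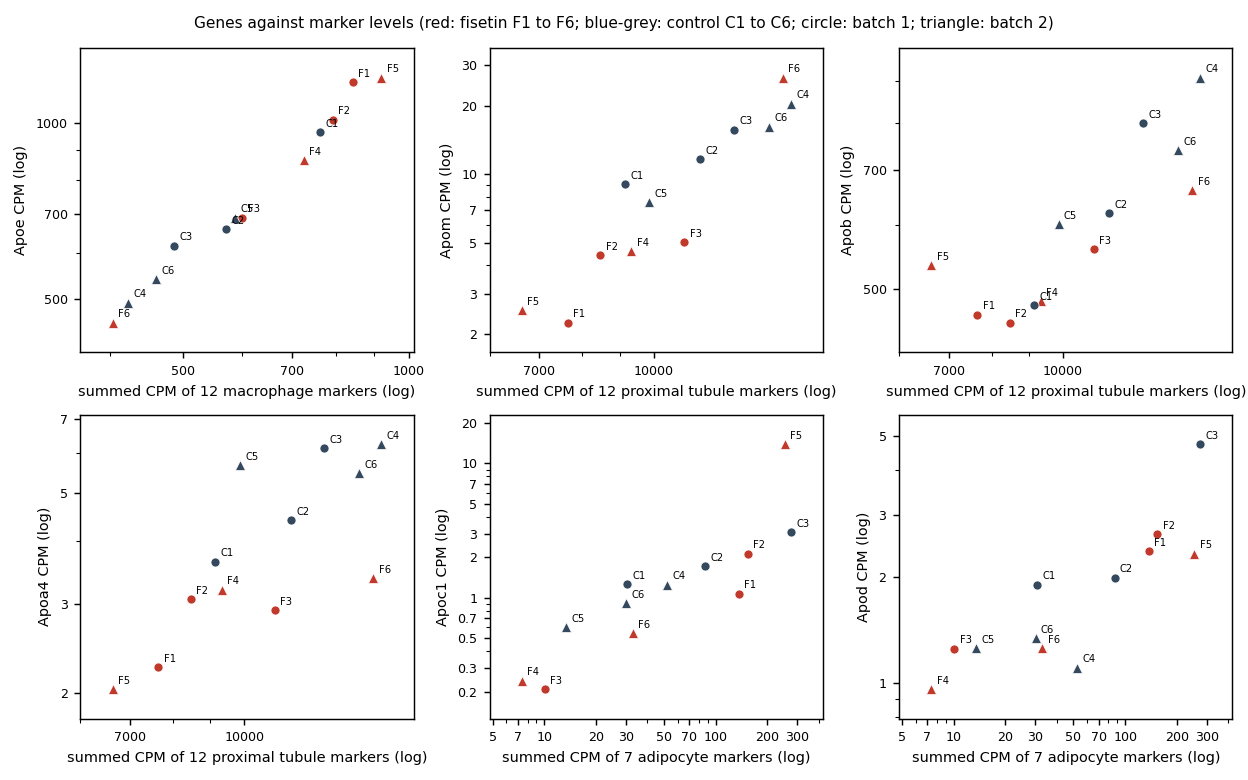
CPM of 6 genes (y axes, log) against the summed CPM of marker lists (x axes, log) in each library, with red for fisetin 1 to 6 (F) and blue-grey for control 1 to 6 (C), circles for batch 1 and triangles for batch 2. Apoe climbs with the macrophage sum and Apom with the proximal tubule sum over both diets, and Apoc1 and Apod have their highest values in the libraries with the top adipocyte sums, 253 CPM in fisetin 5 and 274.2 CPM in control 3.

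The diet estimates of the marker lists are given beside these genes. Macrophage markers summed to 403.3 to 919.2 CPM in fisetin libraries, against 423.3 to 761.5 CPM in control libraries, and the diet estimate was positive for 12 of 12 (median log2 fold change 0.40, 0.27 without fisetin 5 and 0.51 without fisetin 6). Proximal tubule markers summed to 6633 to 14970 CPM with fisetin, against 9138 to 15340 CPM on the control diet, and were negative for 12 of 12 (median −0.35, −0.22 without fisetin 5 and −0.56 without fisetin 6). Fibroblast markers summed to 1206 to 1777 CPM with fisetin and 1241 to 1847 CPM on the control diet, with 4 positive and 3 negative estimates (median 0.0068, −0.026 without fisetin 5 and 0.05 without fisetin 6). The 6 markers of other kidney epithelia were negative for 6 of 6 (median −0.28, −0.20 without fisetin 5 and −0.33 without fisetin 6). No macrophage or proximal tubule marker was at 0, and edgeR called 0 of either list (2 macrophage and 1 tubule marker had an unadjusted p under 0.05, DESeq2 called 0, and limma-voom with quality weights called 9 macrophage markers higher and 4 tubule markers lower, beside 6.46% higher and 6.9% lower over all genes). Over all 17890 genes tested the median was 0.00080, and 2608 had an unadjusted p under 0.05. In bulk tissue, fewer cells of a type and less RNA per cell cannot be told apart, and the part of cell make-up in the diet differences of Apoe, Apom, Apob and Apoa4 was not tested.

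The genes most like each of the 7, by Pearson r of the same residuals among 14981 genes over 12 libraries, ranged from 0.948 to 0.992. For Apoe they were Cpxm1, Cerk and Cyth4 (0.992, 0.991 and 0.991). For Apom they were Acmsd, Fbxo8 and Rgl1 (0.991, 0.988 and 0.987), and for Apob Orc3, Dnajb14 and C330018D20Rik (0.974, 0.971 and 0.964). Apoa4 was most like Tfap2b, Hmx2 and D430042O09Rik (0.956, 0.953 and 0.948). Without fisetin 5 its closest genes were Ap3m1, Tmem170 and P4ha1 instead (0.966, 0.961 and 0.958), while those of Apoe stayed the same. Apod was most like Art3, Zfp97 and B3galt2 (0.977, 0.962 and 0.957). For Apoa1 the closest were Lta4h, Itih3 and Gja1 (0.98, 0.976 and 0.953). Without fisetin 5 the first for Apoa1 was Zfp62 instead (0.979), over libraries with 1 to 5 counts of Apoa1. These are the highest of 14981 values for each gene, and no chance level was computed.

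Genes that act on apolipoproteins were read from the same fit. Of 16 receptor and uptake genes, edgeR called 0 for diet (3 with an unadjusted p under 0.05, DESeq2 0, limma-voom with quality weights 2 lower); 5 estimates were positive and 11 negative, with a median log2 fold change of −0.07. Lrp2, encoding megalin, the tubular receptor that retrieves filtered apolipoproteins, had 3116 ± 1190 CPM with fisetin and 4301 ± 960 CPM on the control diet (SD, n = 6 each; log2 −0.47 ± 0.22, adjusted p = 0.348 by edgeR). Its partner Cubn stood at −0.17 ± 0.18 and their helper Amn at −0.24 ± 0.12. Lrp2 and Cubn are also among the tubule markers.

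Of 7 genes for particle assembly and lipid efflux, edgeR called 0 (1 with an unadjusted p under 0.05, DESeq2 0, limma-voom with quality weights 1 higher and 1 lower), 5 positive and 2 negative, with a median of 0.18. Mttp, which loads lipid onto apolipoprotein B, had 21.84 ± 9.52 CPM with fisetin and 25.71 ± 5.88 CPM on the control diet (−0.25 ± 0.24), and Apobec1, which edits the Apob messenger, had 25.44 ± 6.97 CPM and 19.76 ± 3.01 CPM (0.36 ± 0.16). Abca1, which loads lipid onto apolipoprotein A-I, stood at 0.04 ± 0.12. Without fisetin 5 the median of the list was −0.02.

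Of 8 lipases and their regulators tested out of 9, edgeR called 0 (1 with an unadjusted p under 0.05, DESeq2 0, limma-voom with quality weights 0), 1 positive and 7 negative, with a median of −0.06. Lpl, lipoprotein lipase, had 242.3 ± 41.9 CPM with fisetin and 327.6 ± 122 CPM on the control diet (−0.43 ± 0.23).

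Of 13 transcription factors for apolipoprotein genes tested out of 14, edgeR called 0 (3 with an unadjusted p under 0.05, DESeq2 0, limma-voom with quality weights 2 lower), 2 positive and 11 negative, with a median of −0.11. Hnf4a had 456.8 ± 103 CPM with fisetin and 518.7 ± 83.7 CPM on the control diet (−0.18 ± 0.15). Nr1h3, encoding the oxysterol receptor LXR-alpha, a known activator of Apoe, stood at −0.29 ± 0.09 (adjusted p = 0.276 by edgeR). The part of these factors in the Apoe values was not tested.

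Of 9 other secreted apolipoproteins 4 could be fitted, and edgeR called 0 (0 with an unadjusted p under 0.05, DESeq2 0, limma-voom with quality weights 1 lower, Apoh). Apoa2 stood at 1.57 ± 0.85 with all libraries and 0.02 ± 0.22 without fisetin 5. Of the 13 genes of the intracellular apolipoprotein L family 6 could be fitted, 5 positive and 1 negative with a median of 0.37. There edgeR called 0 (3 with an unadjusted p under 0.05, DESeq2 0, limma-voom with quality weights 1 higher). The largest was Apol7c, with 2.539 ± 1.22 CPM with fisetin and 1.229 ± 0.534 CPM on the control diet (1.01 ± 0.34, adjusted p = 0.29 by edgeR). These genes are close copies of each other, so how their reads were shared out is uncertain.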

How the data were processed

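Bulk messenger RNA of 12 mouse kidney libraries was sequenced, 6 per diet and 3 per diet and batch; diet was taken from the titles and batch from the labels. Per the submitters' processing notes, STAR, fastp, DESeq2 and featureCounts were used with GRCm38 and mm10; tool versions and the annotation release were not found in these sources. Per the file headers, each library has estimated counts, TPM and FPKM in the deposited table. Estimated counts are unscaled; 13.91% of the nonzero ones lay further than 1e-06 from a whole number, and all were rounded before fitting. Deposited TPM had been scaled by the authors so that each library has the same total. The deposited FPKM values, scaled for length and depth by the authors, were not used. All 36 value columns were matched by name.

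Genes passing filterByExpr (minimum count 10; 17890) were scaled by TMM and tested with edgeR 4.0.16 in R 4.3.3 (glmQLFit, robust, batch and diet; glmQLFTest, two-sided, Benjamini-Hochberg, threshold 0.05). An SE is the fold change over the root of the F statistic. Alternatives were DESeq2 1.42.0, limma 3.58.1 voom with quality weights, other scalings, no filter, no batch term, each batch alone, log2(TPM + 1) and leaving out each library. Correlations used log2 CPM (prior count 2). Likeness was searched among genes averaging log2 CPM 1 or more. Over 16473 genes, the 66 pairs of libraries differed by 6.838 to 100.6 times counting noise, so all 12 were kept as separate. The steps were tested on simulated counts. Replicate numbers follow accession order and pair nothing.

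The 7 genes, the lists, the naming rule (all 7 genes, any gene of the lists by role, the 3 most alike by r) and the markers were chosen with earlier results of these data known. Symbols came from the table and positions from GENCODE M21; the 4 promoters printed came from RefSeq. Results on some listed genes are withheld and are left out.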

Additional observations from a re-analysis of the deposited data

Results flagged for a closer look

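The outermost library's gap to its nearest neighbour was taken as a share of the whole range of its group of 6 log2 values. Each of the 7 genes was examined in each diet. The share passed Dixon's 95% limit in 2 groups, and chance alone gives such a gap in about 1 in 20 groups. Apoa1 had a share of 0.893 in the fisetin libraries, with fisetin 5 as the high one, at 693 estimated counts against 1 to 3 in the other fisetin libraries. Apom had a share of 0.676 in the fisetin libraries, with fisetin 6 as the high one, at 26.54 CPM against 2.25 to 5.057 CPM in the others.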

How the results depend on the processing

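No paired analysis was possible because replicate numbers follow accession order and pair no libraries. For diet, edgeR called 0 genes, DESeq2 154, limma-voom with quality weights 2390 and batch 1 alone 1; leaving out each library gave 0 to 70, with 70 without fisetin 6 and 1 without fisetin 4. DESeq2 without fisetin 5, added after seeing the data, called 63. For the interaction DESeq2 called 1 gene against 0. The Apoe and Apom pair was the only one of 21 to pass, and leaving out each library gave 0 to 2 passing pairs; of the 10 passing pairs of a gene and a marker list, leaving out each library left 3 to 9, and log2(TPM + 1) left 4. With a library left out the exact test has fewer arrangements; beyond this the cause was not tested. Diet estimates of Apoa4, Apob, Apoe and Apom kept their sign in all 22 alternatives, with ranges of −1.0 to −0.52, −0.51 to −0.28, 0.29 to 0.58 and −1.80 to −0.40. Apoc1 kept it in 17 (−1.0 to 2.40) and Apod in 19 (−0.47 to 0.28). Apoa1 and, of the other secreted apolipoproteins, Apoa5, Apoc4, Apof and Apon were limited by counts of a few reads outside fisetin 5. Apoc2 had at most 16.87 estimated counts outside that library.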
